A study of Mus musculus with 18 samples.

Results

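The 43 imprinted genes described here were taken by symbol from the 53672 genes counted in each of 18 RNA-seq libraries. They lie in 19 clusters or single loci. By textbook knowledge 23 of them are expressed from the paternal allele and 18 from the maternal allele, and Gnas and Inpp5f have transcripts of more than 1 kind. The counts are summed over both alleles, so every value below is a total level and says nothing of which parental copy was transcribed. Of the 43 members, 41 had enough counts to be tested. Asb4 and Airn did not, with at most 20 counts in any library.

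The cells were mouse embryonic stem cells (ESCs) of the line E14TG2a whose endogenous Hdac1 and Hdac2 genes are flanked by lox sites. Each of 3 rescue lines also carried a stably integrated Flag-tagged HDAC1 transgene, either wild type (HDAC1-WT) or with a substitution that alters contacts between HDAC1 and its corepressor partners (HDAC1-E63R and HDAC1-Y48E). Each line was sampled untreated and after 4-hydroxytamoxifen (OHT) at 1 uM, which triggers deletion of the endogenous genes, with 3 libraries in each of the 6 groups. The labels give 5 days of OHT, and the methods give 24 h of OHT followed by 4 days of further culture. Untreated cells of every line therefore held endogenous HDAC1 and HDAC2 beside the transgene, and OHT was given to all treated groups with no treated line lacking a transgene analysed here. The transgenes were introduced with piggyBac, and whether a line is a clone or a pool, or whether replicates were separate cultures, is not given in the sources used here. Each mutation is thus represented by 1 line, and p-values measure the spread between these libraries, which may be technical.

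Genomic imprinting silences 1 parental copy of a gene through DNA methylation laid down at imprinting control regions in the germline. After fertilisation the mark is kept by the zinc finger protein ZFP57, which binds the methylated hexamer TGCCGC and recruits TRIM28 and histone H3 lysine 9 methylation, and by the maintenance methyltransferase DNMT1. The genes of a cluster often share a control region, and a long non-coding RNA made from 1 copy commonly accompanies silencing of its neighbours on that copy. Many imprinted genes act in placental and fetal growth, and ESC lines are known to lose or gain imprints in culture. Histone deacetylases 1 and 2 are the catalytic subunits of several corepressor complexes, including NuRD, CoREST and SIN3.

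Gene counts ranged from 9019615 to 11454638 per library, and levels are given as CPM (counts per 1000000 gene counts) after TMM scaling. An upper limit of 3 counts for a count of 0 came to between 0.248 and 0.343 CPM per library and covers counting error only. Chi-square statistics comparing the counts of 2 replicates, divided by their degrees of freedom, were 3.36 to 7.07 within groups, except that HDAC1-E63R untreated replicate 3 gave 55.12 to 61.13 against its partners. A value of 1 is what counting error alone would give. In that library genes with over 8000 exon bases had a median log2 difference of -0.53 from the other 2 libraries of its group, and genes under 2000 bases one of 0.28. Each call of a member that changes without it is given below. All 8 ESC markers were above 1 CPM in every group. Hdac1 counts, to which the transgene may contribute, and Hdac2 counts were not called changed by OHT in any line. Hdac2 was 168.4 to 208.1 CPM untreated and 112.2 to 132.5 after OHT in HDAC1-WT, 152.3 to 209.4 and 149.5 to 158.1 in HDAC1-E63R, and 148.9 to 153.7 and 139.0 to 151.7 in HDAC1-Y48E. These counts sum all exons and do not isolate a deleted part.

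Promoter windows of 300 bases, from 250 before to 50 after a transcription start, were found in RefSeq (GRCm38.p6) for 35 of the 43 members, in 51 windows. The hexamer TGCCGC was searched on both strands, with GCGGCA as its reverse complement. It occurred in 13 of the 51 windows (25.5%), against 3813 of all 32851 windows of the same length (11.6%). The member windows held a median of 15 CpG dinucleotides, against 7 in all windows, and each hexamer contains 1 CpG itself. The windows below, at RefSeq starts, belong to some of the members of clusters with more than 1 called gene, and capitals mark the hexamer.
Meg3 (chr12:109540746-109541045, plus strand): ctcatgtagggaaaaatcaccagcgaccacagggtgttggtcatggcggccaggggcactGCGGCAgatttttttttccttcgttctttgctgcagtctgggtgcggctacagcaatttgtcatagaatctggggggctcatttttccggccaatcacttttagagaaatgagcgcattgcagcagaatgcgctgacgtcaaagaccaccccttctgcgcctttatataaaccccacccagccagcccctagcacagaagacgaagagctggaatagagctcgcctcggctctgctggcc
Rian (chr12:109603695-109603994, plus strand): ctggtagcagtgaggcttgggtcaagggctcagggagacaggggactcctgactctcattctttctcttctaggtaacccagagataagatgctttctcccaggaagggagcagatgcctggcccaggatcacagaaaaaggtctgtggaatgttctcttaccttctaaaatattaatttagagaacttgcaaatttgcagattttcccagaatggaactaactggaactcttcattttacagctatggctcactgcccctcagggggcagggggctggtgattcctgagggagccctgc
Mirg (chr12:109734731-109735030, plus strand): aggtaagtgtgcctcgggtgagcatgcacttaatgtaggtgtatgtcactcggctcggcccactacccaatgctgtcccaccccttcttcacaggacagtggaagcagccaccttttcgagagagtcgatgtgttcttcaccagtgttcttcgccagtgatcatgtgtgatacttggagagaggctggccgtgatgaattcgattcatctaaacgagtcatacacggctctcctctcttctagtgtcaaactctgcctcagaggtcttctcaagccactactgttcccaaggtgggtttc
Mest (chr6:30737800-30738099, plus strand): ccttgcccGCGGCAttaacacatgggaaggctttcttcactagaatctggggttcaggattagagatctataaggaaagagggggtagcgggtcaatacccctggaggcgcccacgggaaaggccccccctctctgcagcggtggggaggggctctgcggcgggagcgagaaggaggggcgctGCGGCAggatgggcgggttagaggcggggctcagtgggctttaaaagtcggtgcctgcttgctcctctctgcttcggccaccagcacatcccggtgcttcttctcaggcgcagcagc
Copg2 (chr6:30896745-30897044, minus strand): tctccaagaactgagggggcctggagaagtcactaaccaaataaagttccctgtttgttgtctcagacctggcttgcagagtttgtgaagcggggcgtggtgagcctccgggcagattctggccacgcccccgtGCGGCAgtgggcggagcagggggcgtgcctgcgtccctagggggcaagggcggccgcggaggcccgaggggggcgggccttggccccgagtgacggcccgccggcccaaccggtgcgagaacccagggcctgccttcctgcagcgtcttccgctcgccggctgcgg
Kcnq1ot1 (chr7:143296498-143296797, minus strand): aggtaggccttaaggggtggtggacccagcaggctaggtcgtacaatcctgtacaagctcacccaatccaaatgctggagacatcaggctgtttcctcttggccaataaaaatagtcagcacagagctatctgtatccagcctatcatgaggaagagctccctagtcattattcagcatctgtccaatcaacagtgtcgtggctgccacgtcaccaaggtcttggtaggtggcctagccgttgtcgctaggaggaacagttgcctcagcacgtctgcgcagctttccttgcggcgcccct
The printed Meg3 window held 13 CpGs and 1 hexamer, and the Mirg window 10 CpGs and no hexamer. A further Meg3 window (chr12:109545148-109545447) held 1 CpG and 0 hexamers, and a further Mest window (chr6:30733256-30733555) held 8 CpGs and 0 hexamers. The Rian window held 0 CpGs. The printed Mest window held 17 CpGs and 2 hexamers, the Copg2 window 25 CpGs and 1 hexamer, and the Kcnq1ot1 window 9 CpGs and no hexamer. Of the other members that rose after OHT with both mutants, the windows of Nnat (chr2:157559828-157560127) and Plagl1 (chr10:13090582-13090881) each held 1 hexamer, and that of a start upstream of Zdbf2 (chr1:63200108-63200407) held 3, while the window at the annotated Zdbf2 start (chr1:63273019-63273318) held 38 CpGs and 0 hexamers. H19, Peg10 and Cdkn1c had no entry. Windows of called members of such clusters not printed here were those of Ascl2, Phlda2, Peg3, Usp29, Peg12, Igf2 and Snrpn. Those of Ascl2, Phlda2, Peg3, Usp29 and Peg12 each held 0 hexamers. The Igf2 window at chr7:142661222-142661521 held 1 hexamer and its others 0. The Snrpn window at chr7:60005150-60005449 held 1 hexamer and its others 0. A Mest window (chr6:30737803-30738102) that overlaps the printed one also held 2 hexamers, and both count among the 13. A match is a description of these letters and does not show binding or methylation.

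The first question is what loss of the endogenous enzymes does to imprinted genes when each form of HDAC1 is left. A gene was called changed at an adjusted p under 0.01 and more than 2-fold by edgeR's quasi-likelihood test, with Benjamini-Hochberg adjustment over all 18791 genes tested. In HDAC1-WT, 0 tested members rose, where 0.0373% of all genes rose, and 1 fell, Mest, where 0.016% of all genes fell. In HDAC1-E63R, 8 members (19.5% of those tested) rose, where 4.74% of all genes rose, and 2 (4.88%) fell, where 1.18% of all genes fell. In HDAC1-Y48E, 13 members (31.7%) rose, where 10.8% of all genes rose, and 1 (2.44%) fell, where 5.84% of all genes fell. The median log2 fold change of the tested members was 0.46 with HDAC1-E63R and 0.55 with HDAC1-Y48E, against 0.03 and 0.05 for all genes. With Igf2 set at its lower bound, the median with HDAC1-Y48E was again 0.55. The remaining 25 tested members were called in no line.

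H19, Plagl1, Nnat, Cdkn1c, Peg10, Rian, Mirg and Zdbf2 rose with both mutants, which is every increase called with HDAC1-E63R and 61.5% of the HDAC1-Y48E increases. Igf2, Usp29, Meg3, H13 and Inpp5f were called up with HDAC1-Y48E alone. Kcnq1ot1 fell with both mutants, and Ascl2 was called down with HDAC1-E63R alone. Without HDAC1-E63R untreated replicate 3, the counts with that mutant were again 8 up and 2 down, where 4.71% and 1.03% of all genes rose and fell in that fit, but Meg3 rose (log2 1.07, adjusted p = 8.61e-05) and Grb10 fell (-1.03, adjusted p = 9.58e-05), while Zdbf2 (0.99, adjusted p = 2.93e-06) and Ascl2 (-0.74, adjusted p = 0.0665) were no longer called. By the allele known to be expressed, the increases with HDAC1-E63R were 4 of 22 paternal and 4 of 17 maternal members. With HDAC1-Y48E they were 6 of 22 paternal and 6 of 17 maternal members, besides Inpp5f.

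**Figure D1:**
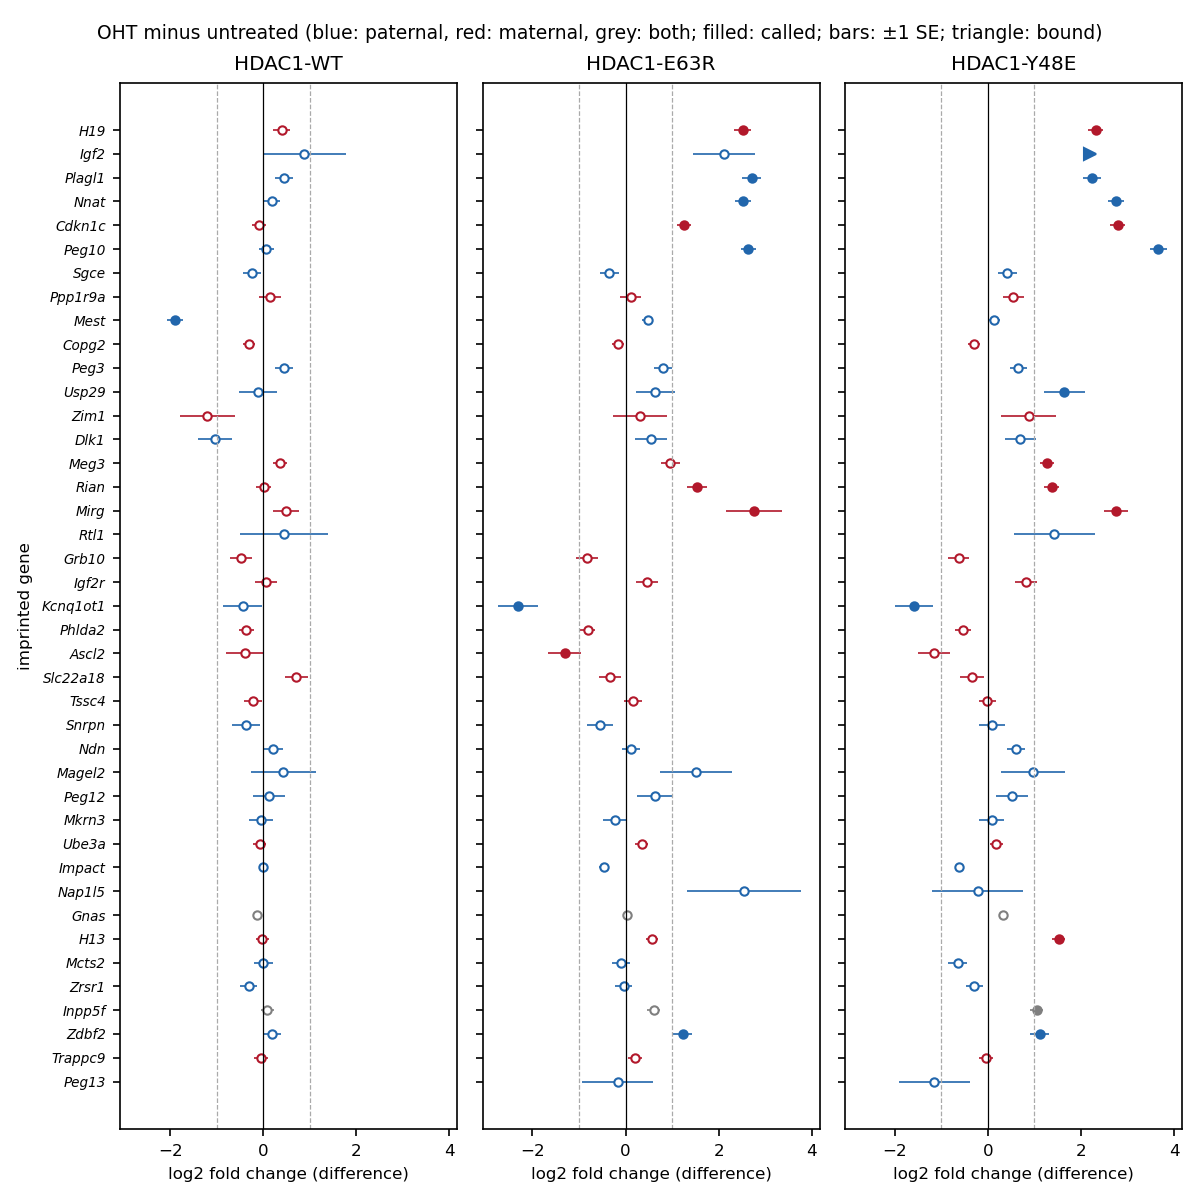
Log2 fold changes of the tested imprinted genes after OHT (x axis) in the 3 rescue lines, with bars of 1 standard error, blue for paternally, red for maternally expressed and grey for both. Filled points passed the call, and a triangle marks a bound against a group at 0 counts. Points with both groups at or about the floor of 3 counts are left out. In HDAC1-WT only Mest is filled, and with both mutants the filled points lie mostly right of 0.

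Peg10, a retrotransposon-derived gene needed for the placenta, lies on chromosome 6 (chr6:4747306-4760517, mm10, plus strand) and had the largest log2 change with HDAC1-Y48E among called members counted in untreated cells. Its levels were 71.3, 87.1 and 95 CPM in untreated HDAC1-WT and 87.6, 81.6 and 96.7 after OHT. They went from 157.9, 206.2 and 98.3 to 1009.7, 924.7 and 952.7 with HDAC1-E63R, and from 116.7, 115.6 and 117.3 to 1485.0, 1504.7 and 1431.8 with HDAC1-Y48E. The treated and untreated libraries of both mutants did not overlap, and those of HDAC1-WT did. The log2 fold changes were 2.64 (SE 0.17, adjusted p = 1.03e-09) and 3.66 (SE 0.18, adjusted p = 1.51e-12). Sgce, which encodes epsilon-sarcoglycan, starts 98 bases from Peg10 on the other strand and is also paternally expressed. Its log2 fold changes were -0.35 (SE 0.20) and 0.42 (SE 0.20), neither called. Ppp1r9a, a neighbour encoding the actin-binding protein neurabin, gave 0.11 and 0.55, neither called.

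Nnat encodes neuronatin, a small membrane protein, and lies inside Blcap (chr2:157560078-157562522), with no exon base shared. It stood at 15.0, 16.7 and 21.7 CPM untreated and at 97.7, 102.7 and 105.9 after OHT with HDAC1-E63R. With HDAC1-Y48E it went from 20.8, 19.1 and 16.1 to 116.5, 136.1 and 124.8 CPM. In HDAC1-WT it was between 7.12 and 12.3 CPM in all 6 libraries. The log2 fold changes were 2.52 (SE 0.17, adjusted p = 1.31e-09) with HDAC1-E63R and 2.75 (SE 0.17, adjusted p = 2.73e-11) with HDAC1-Y48E, without overlap of treated and untreated libraries.

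Plagl1 (chr10:13060504-13131694) encodes a zinc finger transcription factor that restrains growth and is known to act on other imprinted genes. It was at 3.88, 4.85 and 4.80 CPM untreated and 31.9, 27.2 and 29.2 after OHT with HDAC1-E63R, and went from 9.23, 7.28 and 9.79 to 40.1, 42.5 and 42.0 with HDAC1-Y48E. In HDAC1-WT it was 8.17, 7.87 and 9.69 untreated and 15.2, 9.06 and 10.7 after OHT, so that these groups overlapped. The log2 fold changes were 2.71 (SE 0.20, adjusted p = 5.54e-09) and 2.24 (SE 0.19, adjusted p = 3.98e-09) in the mutants and 0.44 (SE 0.19, adjusted p = 0.436) in HDAC1-WT.

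Cdkn1c, the cyclin-dependent kinase inhibitor p57 and a maternally expressed brake on growth (chr7:143458339-143461050), also rose with both mutants. Levels with HDAC1-E63R were 46.0, 53.5 and 68.8 CPM untreated and 115.2, 148.1 and 135.7 after OHT. With HDAC1-Y48E they were 12.4, 14.4 and 13.3 untreated and 97.4, 93.2 and 88.2 after OHT. In HDAC1-WT they were 37.2, 40.5 and 37.7 untreated and 44.8, 31.1 and 31.8 after OHT. The untreated HDAC1-Y48E libraries lay below every other library, and after OHT both mutants lay above every HDAC1-WT library. The log2 fold changes were 1.25 (SE 0.15, adjusted p = 2.85e-06) and 2.79 (SE 0.16, adjusted p = 1.55e-11). The antisense gene Gm44732 covers 30.7% of the Cdkn1c exons and rose by 1.30 and 2.76 on the log2 scale. Use of strand in the counting is not given in the sources used here, and without strand, reads of these genes cannot be told apart.

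Zdbf2 (chr1:63273265-63314576), a growth-promoting gene of the hypothalamus, rose less. It went from 26.5, 34.9 and 16.8 to 64.7, 62.1 and 55.9 CPM with HDAC1-E63R and from 28.2, 31.0 and 29.0 to 62.4, 71.0 and 57.3 with HDAC1-Y48E. The lowest untreated value with HDAC1-E63R was in replicate 3, and its log2 fold change of 1.23 (SE 0.20) was 0.99 without that library. The call was also lost with only the libraries compared (adjusted p = 0.0177). The change with HDAC1-Y48E was 1.11 (SE 0.20, adjusted p = 0.000131). In HDAC1-WT the levels were 41.1, 32.6 and 52.1 CPM untreated and 44.1, 39.7 and 59.6 after OHT. The highest of these overlaps the treated mutant libraries.

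**Figure D2:**
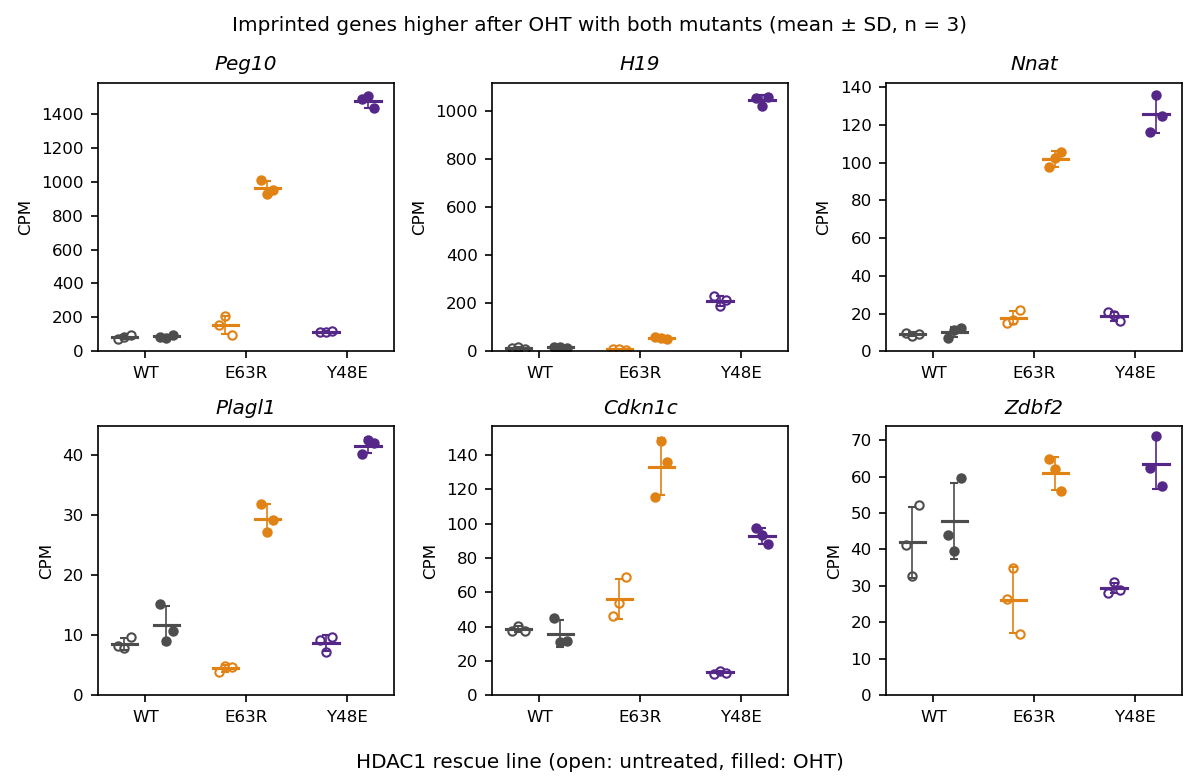
Levels in CPM (y axis, from 0) of 6 imprinted genes that rose with both mutants, for untreated (open) and OHT (filled) libraries of each rescue line (x axis). Each point is 1 library, with the mean and SD of 3 drawn. Treated points of both mutants lie above the untreated points of their line. HDAC1-WT points lie between 71.3 and 96.7 CPM for Peg10. For Zdbf2 they lie between 32.6 and 59.6 CPM, where they reach the treated mutant points.

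H19 is a maternally expressed non-coding RNA and its neighbour Igf2 a paternally expressed fetal growth factor, and both depend on enhancers that a CTCF-bound control region assigns to 1 of them. H19 lies at chr7:142575529-142578143. It rose from 10.6, 11.2 and 6.97 to 58.1, 54.8 and 53.2 CPM with HDAC1-E63R (log2 2.52, SE 0.18, adjusted p = 2.51e-09). With HDAC1-Y48E it rose from 228.3, 186.8 and 212.9 to 1054.3, 1020.3 and 1057.7 CPM (2.32, SE 0.16, adjusted p = 1.25e-10). The untreated levels differed between the lines. The difference between the rises, -0.21 on the log2 scale (SE 0.23, adjusted p = 0.7), did not pass the test. In HDAC1-WT it was 13.1, 16.6 and 8.39 untreated and 18.6, 16.8 and 15.3 after OHT. Igf2 had 0 counts in all 3 untreated HDAC1-Y48E libraries and 20, 18 and 10 counts after OHT (adjusted p = 0.000804), which makes it at least 4.57-fold higher against a floor of 3 counts per library. In HDAC1-WT Igf2 had 1, 9 and 0 counts untreated and 8, 4 and 7 after OHT. With HDAC1-E63R Igf2 was at 2.86, 2.82 and 0.343 CPM untreated and at 7.94, 8.75 and 9.67 after OHT, without overlap, and missed the call (log2 2.11, SE 0.66, adjusted p = 0.0242). Per kilobase of exon, H19 reached 424.4 CPM in HDAC1-Y48E after OHT and Peg10 221.1.

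The Dlk1-Meg3 cluster on chromosome 12 holds the paternally expressed Dlk1 and Rtl1 and the maternally expressed non-coding RNAs Meg3, Rian and Mirg. Rian hosts small nucleolar RNAs and Mirg is a host transcript of microRNAs, with 14 annotated hairpins inside it. Meg3 (chr12:109541001-109571726) was at 78.4, 93.8 and 110.3 CPM in untreated HDAC1-WT, at 3.69, 7.22 and 6.51 in HDAC1-E63R and at 270.2, 236.2 and 233.6 in HDAC1-Y48E. After OHT it was 126.0, 126.4 and 111.1 in HDAC1-WT, 9.18, 12.2 and 12.3 in HDAC1-E63R and 520.8, 644.4 and 637.7 in HDAC1-Y48E. Its OHT effect was called with HDAC1-Y48E (log2 1.28, SE 0.15, adjusted p = 4.62e-07) and was 0.96 (SE 0.20, adjusted p = 0.00133) with HDAC1-E63R, short of 2-fold.

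Rian rose with HDAC1-E63R from 7.11, 7.44 and 3.77 to 12.2, 20.6 and 21.1 CPM (log2 1.54, SE 0.21, adjusted p = 1.18e-05) and with HDAC1-Y48E from 242.2, 242.4 and 269.0 to 622.6, 648.9 and 676.2 (1.37, SE 0.16, adjusted p = 4.38e-07). Mirg rose with HDAC1-Y48E from 9.88, 8.07 and 6.56 to 51.3, 56.0 and 58.0 CPM (2.75, SE 0.26, adjusted p = 2.5e-08). With HDAC1-E63R it had 5, 0 and 0 counts untreated and 12, 15 and 14 after OHT, which passed the test (adjusted p = 0.00169) on very few counts. Without untreated replicate 3 the log2 change with HDAC1-E63R was 1.29 for Rian and 2.25 for Mirg, both again called. When the 6 libraries of HDAC1-E63R were fitted alone, neither Rian (adjusted p = 0.0212) nor Mirg (adjusted p = 0.0983) passed. In HDAC1-WT the levels of Rian were 90.7 to 107.8 CPM untreated and 91.7 to 109.5 after OHT. After OHT with HDAC1-E63R, Meg3, Rian and Mirg were below every HDAC1-WT library.

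Dlk1, a Notch-like membrane protein, was called in no comparison. It was 4.25 to 6.20 CPM in untreated HDAC1-E63R, 5.29 to 6.70 in HDAC1-WT and 9.12 to 13.4 in HDAC1-Y48E, and its OHT effects of -1.03, 0.55 and 0.70 in HDAC1-WT, HDAC1-E63R and HDAC1-Y48E were not called. Rtl1, a retrotransposon-derived gene antisense to microRNAs of the cluster, had at most 41 counts in any library. The opposite-strand gene Gm26906 shares 6.8% of the Meg3 exon bases. An annotated copy, Gm27000, matches 842 bases of Meg3 at 99.9% identity, so a part of the Meg3 reads may be shared with it.

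**Figure D3:**
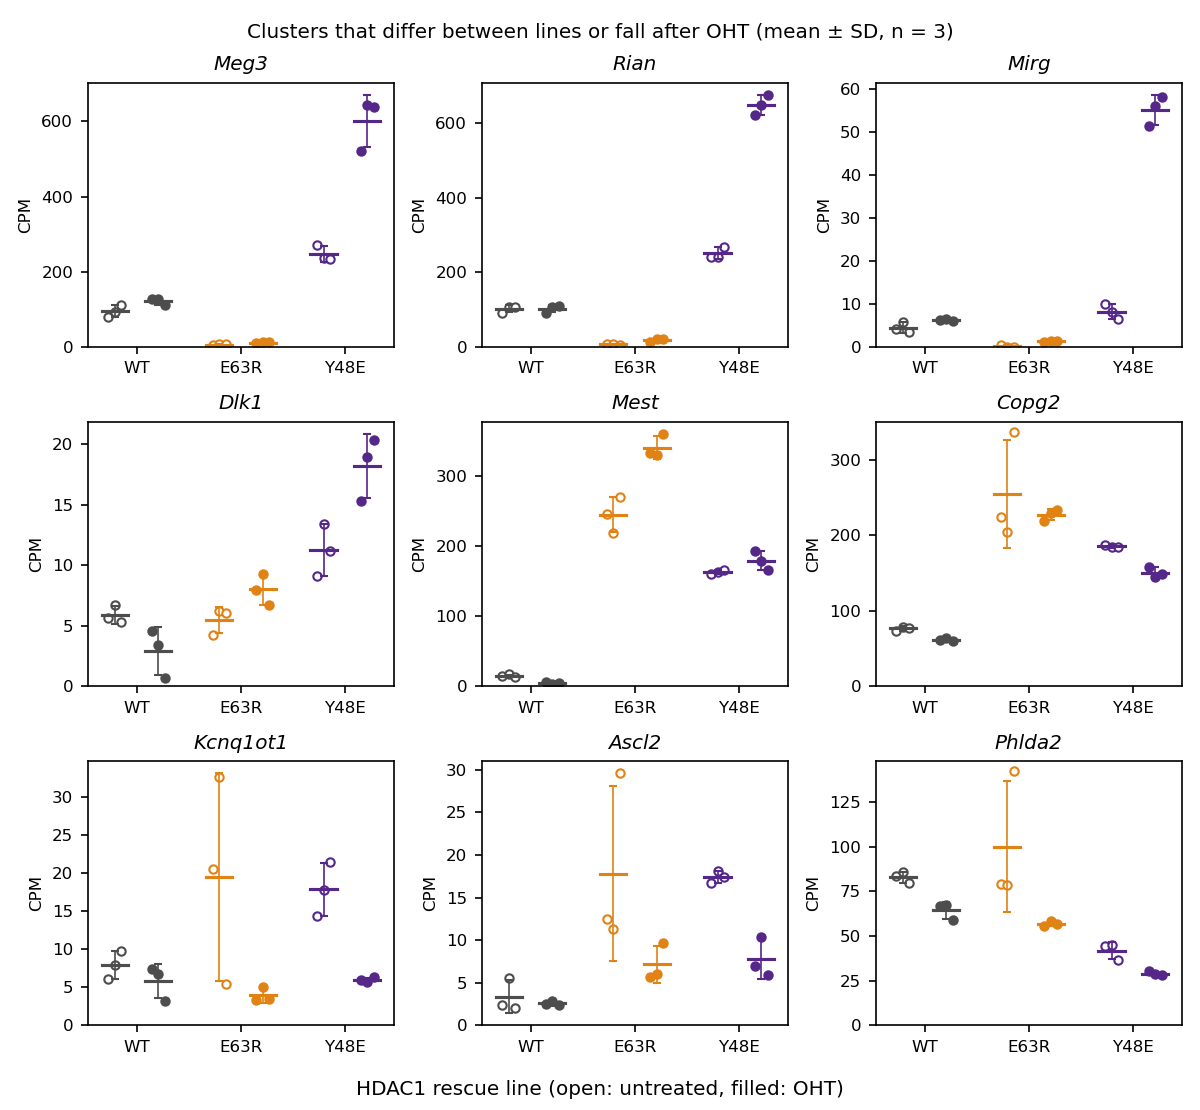
Levels in CPM (y axis, from 0) of 9 imprinted genes of the Dlk1-Meg3, Mest and Kcnq1ot1 clusters in untreated (open) and OHT (filled) libraries of each rescue line (x axis), with the mean and SD of 3 libraries. Meg3, Rian and Mirg are lowest in HDAC1-E63R and highest in HDAC1-Y48E, Mest is at most 16.7 CPM in HDAC1-WT, and the untreated HDAC1-E63R points of Kcnq1ot1 spread from 5.37 to 32.6 CPM.

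Mest (chr6:30723547-30748465), a paternally expressed gene for a hydrolase-like protein of mesoderm, was the member called with HDAC1-WT. It fell there from 14.2, 16.7 and 13.2 to 5.29, 2.72 and 3.97 CPM (log2 -1.89, SE 0.17, adjusted p = 3.37e-06). It was far higher in the mutant lines in both conditions, at 244.6, 218.8 and 268.8 CPM untreated and 331.9, 329.0 and 358.7 after OHT with HDAC1-E63R, and at 159.4, 161.9 and 164.8 and then 192.3, 178.1 and 165.4 with HDAC1-Y48E. The OHT effects there were 0.48 (SE 0.12, adjusted p = 0.00638) and 0.14 (SE 0.12), neither called. Copg2, a coat protein gene that is maternally expressed in some tissues, runs into Mest from the other strand, and the genes share 912 exon bases, 23.1% of Mest and 17.8% of Copg2. Copg2 was 73.0, 79.0 and 77.2 CPM in untreated HDAC1-WT, 224.1, 203.7 and 336.6 in HDAC1-E63R and 187.0, 184.3 and 184.2 in HDAC1-Y48E, and OHT moved it by -0.31, -0.16 and -0.30 on the log2 scale, not called. How far the shared bases tie these counts was not tested.

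In the Kcnq1ot1 domain on chromosome 7, the paternal non-coding RNA Kcnq1ot1 is known to silence Cdkn1c, Phlda2, Ascl2, Slc22a18 and Tssc4 on the same copy. Kcnq1ot1 (chr7:143203458-143296549) fell with HDAC1-E63R from 20.5, 32.6 and 5.37 to 3.31, 5.04 and 3.42 CPM (log2 -2.31, SE 0.43, adjusted p = 0.000403). The change was -2.76 without untreated replicate 3, and it did not pass when the 6 libraries of that line were fitted alone (adjusted p = 0.0348). It fell with HDAC1-Y48E from 14.4, 17.7 and 21.4 to 5.91, 5.71 and 6.29 (-1.58, SE 0.41, adjusted p = 0.00354), a call lost in 4 of the fits that leave out 1 library. In HDAC1-WT it was 6.04, 7.87 and 9.79 untreated and 7.41, 6.79 and 3.26 after OHT. The untreated mutant libraries, replicate 3 of HDAC1-E63R aside, stood above the untreated HDAC1-WT libraries, and the treated mutant libraries lay within the range of the treated HDAC1-WT libraries. Kcnq1ot1 lies inside Kcnq1 on the other strand, and Kcnq1 was below 4 CPM throughout with no called effect of OHT.

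The other genes of this domain differed in direction. Cdkn1c rose, as given above. Ascl2, a transcription factor of the placenta, went from 12.5, 11.3 and 29.6 to 5.70, 6.09 and 9.67 CPM with HDAC1-E63R (log2 -1.31, SE 0.35, adjusted p = 0.00886) and from 16.7, 18.1 and 17.4 to 7.02, 10.4 and 5.93 with HDAC1-Y48E (-1.16, adjusted p = 0.0106, not called). The highest of these values was in HDAC1-E63R untreated replicate 3, and Ascl2 was not called without it (-0.74, adjusted p = 0.0665). The call was also lost with the replicate block, with only the libraries compared, and without HDAC1-E63R OHT replicate 1 or 2. In HDAC1-WT Ascl2 was at 2.42, 5.61 and 2.1 CPM untreated and 2.5, 2.9 and 2.38 after OHT. All mutant libraries, treated ones included, lay above these. Phlda2, a growth restrainer of the placenta, gave -0.81 (adjusted p = 0.000913) and -0.53 (adjusted p = 0.0151), short of 2-fold. The transporter gene Slc22a18 gave -0.33 and -0.34, and Tssc4 gave 0.16 and -0.01.

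Of the Peg3 cluster, the zinc finger gene Peg3 gave log2 changes of 0.81 (adjusted p = 0.00312) with HDAC1-E63R and 0.65 (adjusted p = 0.00666) with HDAC1-Y48E, both short of 2-fold. The deubiquitinase-like gene Usp29, which starts 146 bases away, rose with HDAC1-Y48E from 2.97, 2.96 and 1.94 to 10, 9.60 and 4.94 CPM (1.64, SE 0.44, adjusted p = 0.00422), a call lost in 5 fits that leave out 1 library. In HDAC1-WT Usp29 was at 4.55, 4.53 and 9.19 CPM untreated and 7.41, 7.34 and 2.2 after OHT, which overlaps its treated HDAC1-Y48E levels. The opposite-strand gene Zim3 shares 14.3% of the Usp29 exon bases, and 10 other genes match parts of Usp29 at 95% identity or more. Its counts are therefore uncertain. Zim1 was below 5 CPM throughout.

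At the H13 locus, the maternally expressed peptidase gene H13 rose with HDAC1-Y48E from 18.7, 22.7 and 23.1 to 60.7, 60.9 and 63.4 CPM (log2 1.52, SE 0.14, adjusted p = 1.11e-08). Its change was 0.56 (adjusted p = 0.00375) with HDAC1-E63R. Mcts2, the paternal retrogene inside its intron, gave -0.65 (adjusted p = 0.0138) with HDAC1-Y48E. Inpp5f, a phosphoinositide phosphatase gene with a paternal isoform, rose with HDAC1-Y48E from 32.5, 33.2 and 28.6 to 62.7, 61.6 and 70.7 CPM (1.05, SE 0.14, adjusted p = 3.69e-06) and gave 0.61 (adjusted p = 0.00288) with HDAC1-E63R. The Inpp5f call lies at the edge of 2-fold and was lost in 2 fits that leave out 1 library. The counts do not separate its isoforms.

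The other loci showed smaller or no called effects of OHT. Impact, a translation regulator, fell short of the call at -0.47 and -0.62 in the mutants with adjusted p = 0.00042 and 6.18e-06, and was 202.7 to 210.3 CPM untreated and 195.5 to 210.8 after OHT in HDAC1-WT. Igf2r, the maternally expressed receptor that removes IGF2, was 167.2, 184.5 and 173.9 CPM untreated and 303.1, 307.3 and 315.8 after OHT with HDAC1-Y48E (log2 0.82, adjusted p = 0.00791). With HDAC1-E63R it was 146.3, 170.0 and 48.8 untreated, the last in replicate 3. Gnas, the stimulatory G protein subunit, gave 0.33 (adjusted p = 0.00457) with HDAC1-Y48E. Grb10, a growth inhibitor, gave -0.83 and -0.63 in the mutants, neither called.

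In the Snrpn cluster, none of Snrpn, Ndn, Magel2, Peg12, Mkrn3 and Ube3a was called after OHT in any line, with log2 changes from -0.55 to 0.64 apart from the scarce Magel2. Snrpn encodes a spliceosome protein and Ube3a the ubiquitin ligase of Angelman syndrome. Snrpn shares 27.3% of its exon bases with Gm38393 and has a copy, Gm5802, at 95.3% identity, so its counts are uncertain. Trappc9, Zrsr1 and Sgce were not called after OHT in any line, with log2 changes from -0.35 to 0.42. Nap1l5 had at most 24 counts in any library. Airn, the non-coding RNA that silences Igf2r on the paternal copy, had 0 counts in untreated HDAC1-Y48E and 20, 18 and 2 after OHT, and was not tested. Peg13 was not called after OHT in either mutant (-0.17 and -1.15).

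Whether the effect of OHT differed between lines was tested directly as a difference of log2 fold changes. Each pair of these comparisons shares the libraries of 1 line. With HDAC1-E63R minus HDAC1-WT, 7 members were called, all higher, where 1.68% of all genes were called. With HDAC1-Y48E minus HDAC1-WT, 9 were called, all higher, where 8.62% of all genes were. Both shares count calls in either direction, so they do not weigh the direction of the member calls. The largest adjusted p of a called member was 0.000918 with HDAC1-E63R and 0.000145 with HDAC1-Y48E. Peg10 differed by 2.57 and 3.59 on the log2 scale, Nnat by 2.34 and 2.57, Plagl1 by 2.27 and 1.80 and H19 by 2.12 and 1.91. Mest differed by 2.36 and 2.03, which combines its fall in HDAC1-WT with the values of the mutants. Cdkn1c differed by 1.35 and 2.89 and Rian by 1.53 and 1.36, and Mirg (2.27) and H13 (1.54) were called with HDAC1-Y48E. Inpp5f (0.96, adjusted p = 0.00135) and Meg3 (0.92, adjusted p = 0.0029) passed the adjusted p with HDAC1-Y48E and fell short of 2-fold, as did Impact (-0.62, adjusted p = 0.000851) and Gnas (0.46, adjusted p = 0.00985). Zdbf2, Usp29, Igf2, Ascl2 and Kcnq1ot1 did not pass the adjusted p in either comparison. Without HDAC1-E63R untreated replicate 3, Kcnq1ot1 was called with HDAC1-E63R (-2.31, adjusted p = 2.62e-05).

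Between the mutants, 1 member differed in its OHT effect, Cdkn1c (1.55, SE 0.22, adjusted p = 0.000116), where 1.31% of all genes were called. Peg10 missed the call at 1.02 (adjusted p = 0.0104) and passed it without HDAC1-E63R untreated replicate 3 (1.25, adjusted p = 9.01e-12). H13 passed the adjusted p and fell short of 2-fold (0.96, SE 0.19, adjusted p = 0.00349). The remaining members did not pass, which does not mean that they responded alike.

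Imprinted genes also differed between the untreated lines, before any deletion was induced, by values given here on the log2 scale. With HDAC1-E63R minus HDAC1-WT, 8 members were called, where 7.65% of all genes were. Mest (4.05), Copg2 (1.74), Ascl2 (2.38) and Peg13 were higher, and Meg3 (-4.04), Rian (-4.04), Mirg (-4.59) and Peg12 (-1.74) were lower. Without replicate 3 of untreated HDAC1-E63R the count was 13, where 6.98% of all genes were called in that fit, with Igf2 (3.15), Peg10 (1.11), Grb10 (1.07), Kcnq1ot1 (1.75) and Sgce (-1.17) added. Ascl2 was then 1.81, Mirg -4.08 and Peg12 -2.28, each again called. With only the libraries compared, Ascl2 (adjusted p = 0.0147), Mirg (adjusted p = 0.0117) and Peg12 were not called. The Peg12 call was also lost without HDAC1-E63R untreated replicate 1. Mirg had 5, 0 and 0 counts in untreated HDAC1-E63R, and its difference ran from -8.52 to -4.08 over the alternatives. With HDAC1-Y48E minus HDAC1-WT, 13 were called, where 5.57% of all genes were. H19 (4.04), Mest (3.46), Ascl2 (2.35), Grb10 (1.80), Snrpn (1.64), Peg3 (1.57), Meg3 (1.39), Rian (1.30), Copg2 (1.28), Nnat (1.04) and Peg13 were higher, and Cdkn1c (-1.52) and Sgce (-1.01) lower. The calls of Nnat and Sgce were each lost in 2 fits that leave out 1 library.

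Peg13, a paternal non-coding RNA inside Trappc9, had 0 counts in all 6 HDAC1-WT libraries. It had 25, 29 and 3 counts in untreated HDAC1-E63R and 34, 30 and 35 in untreated HDAC1-Y48E, at least 6.96-fold and 12.8-fold higher against the floor of 3 counts per library. Without untreated replicate 3 the bound with HDAC1-E63R was 9.83-fold. With HDAC1-Y48E minus HDAC1-E63R, 8 were called, where 0.974% of all genes were. H19 (4.44), Meg3 (5.43), Rian (5.35), Mirg (5.46) and Peg3 (1.15) were higher and Cdkn1c (-2.06), Phlda2 (-1.25) and Igf2, at least 6.07-fold, lower in HDAC1-Y48E. The Igf2 call was lost in 4 fits that leave out 1 library (adjusted p up to 0.0228), and its bound was 8.58-fold without replicate 3 of untreated HDAC1-E63R. Without that library 9 members were called, where 1.27% of all genes were. Peg3 (0.86) and Phlda2 (-0.92) were no longer called, and Plagl1 (1.01), Snrpn (1.24) and Peg12 (1.82) were. With only the libraries compared, Mirg (adjusted p = 0.0141), Peg3 and Phlda2 were not called. The largest adjusted p of a called member was 0.00147, 0.000658 and 0.00417 in the order given. In all 3 comparisons of untreated lines the libraries of every called member did not overlap between the lines. The calls were made on these same libraries, so this adds no separate support. The mutation and the history of a line cannot be told apart, since each mutation is carried by 1 line.

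**Figure D4:**
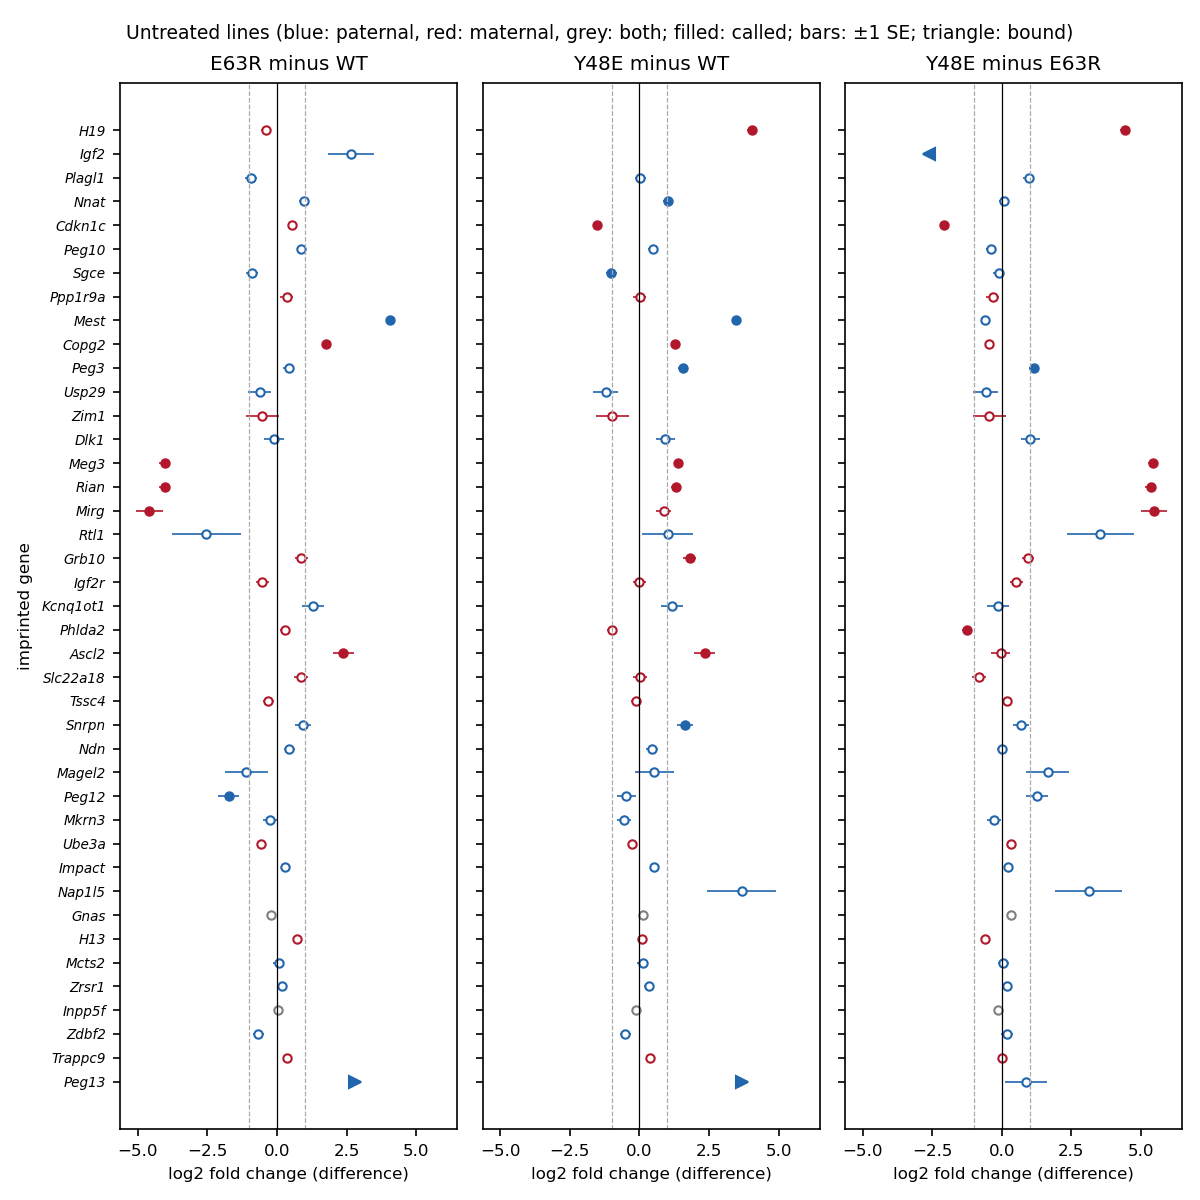
Log2 differences of the tested imprinted genes between untreated rescue lines (x axis), with bars of 1 standard error, blue for paternally, red for maternally expressed and grey for both. Filled points passed the call, triangles mark bounds against a group at 0 counts, and points with both groups at or about the floor of 3 counts are left out. Meg3, Rian and Mirg lie at -4.04 to -4.59 in HDAC1-E63R minus HDAC1-WT and at 5.35 to 5.46 in HDAC1-Y48E minus HDAC1-E63R. Mirg had 5, 0 and 0 counts in untreated HDAC1-E63R, so the size of its differences from that group is uncertain. Over the alternatives they ran from -8.52 to -4.08 and from 4.95 to 9.39.

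Among 25 factors of imprint maintenance and DNA methylation, all tested, 0 were called after OHT in HDAC1-WT. For the difference of the OHT effect from HDAC1-WT, 0 were called with HDAC1-E63R and 5 with HDAC1-Y48E, where 1.68% and 8.62% of all genes were. The 5 were Ctcfl, Dnmt3a and Dppa3, higher, and Tet1 and Tet2, lower. With HDAC1-E63R 2 rose and 0 fell, where 4.74% and 1.18% of all genes did. The 2 were Ctcfl (2.01), a germline relative of CTCF, and the de novo methyltransferase gene Dnmt3a (1.01). With HDAC1-Y48E 5 rose and 2 fell, where 10.8% and 5.84% of all genes did. Ctcfl (2.91), Dnmt3a (1.81), Dnmt3b (1.03), Dnmt3l (1.24) and Dppa3 (1.89), which protects methylation in the early embryo, were higher, and Tet1 (-1.85) and Tet2 (-1.87), which oxidise methylcytosine, were lower. Among untreated lines, Dnmt3a (1.24) and Dppa3 (2.05) were higher in HDAC1-E63R than in HDAC1-WT, and Dppa3 (1.44) in HDAC1-Y48E.

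Among 46 other genes of or beside the imprinted clusters, 32 were tested and 0 were called in HDAC1-WT. With HDAC1-E63R 3 rose and 1 fell, where 4.74% and 1.18% of all genes did, and with HDAC1-Y48E 7 rose and 3 fell, where 10.8% and 5.84% did. For the difference of the OHT effect from HDAC1-WT, 0 were called with HDAC1-E63R, and with HDAC1-Y48E Dio3 and Herc3 were called higher and Cobl lower. Of all genes, 1.68% and 8.62% were called for these differences. Dio3, a thyroid hormone deiodinase of the Dlk1-Meg3 cluster, rose from a mean of 5.49 to 16.0 CPM and from 6.70 to 39.8. Herc3, the host of Nap1l5, rose from 11.0 to 26.8 and from 13.8 to 107.5, and Tnfrsf23, at the far end of the Kcnq1ot1 region, from 0.511 to 4.79 and from 0.553 to 10.7. With HDAC1-E63R Begain fell (-1.12). With HDAC1-Y48E Lsp1, Osbpl5 and Pon2 also rose, by 1.58 to 2.54 on the log2 scale, and Cobl (-1.76), Ddc (-1.25) and Cd81 (-1.06) fell. Pon2 rose there from a mean of 1.11 to 3.32 CPM. Its untreated mean was 5.32 CPM in HDAC1-WT and 4.1 in HDAC1-E63R, and untreated HDAC1-Y48E was called lower than both (-2.25 and -1.87). In untreated HDAC1-E63R against HDAC1-WT, Atp10a was higher (1.24) and Ddc lower (-1.17).

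Several members are expressed in trophoblast, extra-embryonic endoderm or mesoderm. Sums of trophoblast, primitive endoderm and fibroblast markers moved in the same libraries, and no list of mesoderm markers was used. The summed level of 9 trophoblast markers was 68.4 to 93.4 CPM untreated and 172.9 to 181.6 after OHT with HDAC1-E63R, and 83.7 to 93.0 and then 134.0 to 148.9 with HDAC1-Y48E, and in HDAC1-WT 222.7 to 245.6 and then 247.5 to 279.7. The sum of 7 primitive endoderm markers went from 12.4 to 20.8 up to 22.3 to 27.1 with HDAC1-E63R and from 18 to 25.7 up to 46.3 to 51.8 with HDAC1-Y48E, against 41.1 to 43.5 and then 36.0 to 42.1 in HDAC1-WT. The sum of 7 fibroblast markers went from 12.9 to 18.8 up to 48.5 to 56.5 with HDAC1-E63R. With HDAC1-Y48E it went from 23.0 to 27.1 up to 81.6 to 94.2, and in HDAC1-WT from 23.4 to 25.2 up to 35.9 to 41.8. In both mutants 3 of the 7 genes reached a mean of 1 CPM, untreated and after OHT alike. Dcn and Lum had 0 counts in HDAC1-Y48E after OHT. The sum of the 8 ESC markers was 5347.2 to 8656.1 CPM untreated and 4662.1 to 4993.5 after OHT with HDAC1-E63R, and 5969.7 to 6060.2 and then 2653.1 to 2794.1 with HDAC1-Y48E. In HDAC1-WT it was 7818.5 to 8005.7 untreated and 8240.8 to 9084.4 after OHT. In bulk RNA a change in the share of cells and a change in RNA per cell cannot be told apart, and the part of these markers in the results was not tested.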

How the data were processed

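RNA from 18 libraries was sequenced as paired reads. Per the labels, the authors aligned reads to mm10 with HISAT2 (version 2.1.0), sorted them with SAMtools (version 1.9) and counted them with HTSeq. The deposited values are whole-number counts per gene and library, not normalized. The strand setting and annotation release of the counting are not given in the sources used here. The 5 entries that name no gene took 59.4 to 61.2% of the deposited counts, of which no-feature reads were 42.9 to 45.9% of all, and were left out.

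Genes were filtered by edgeR's filterByExpr and scaled by TMM, and 1 mean per group was fitted over all 18 libraries with edgeR's quasi-likelihood test (edgeR 4.0.16, R 4.3.3). Benjamini-Hochberg adjustment ran over 18791 genes, and a call needed an adjusted p under 0.01 and a log2 change above 1 in size. CPM are counts per 1000000 of gene counts times the TMM factor. Gene positions are from GENCODE M21 (mm10). The scripts were tested on simulated data. The alternatives were RLE factors, no filter, a replicate block, only the libraries compared, DESeq2 (1.42.0), the adjusted p alone and leaving out each library. The members and lists were chosen with earlier results of these data known. Every member called in a comparison is named, and other members by cluster, level or adjusted p. Of the 2 other lists only called genes are named, and 1 called gene is counted but not reported here by name.

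Replicate numbers shared between groups did not pair the libraries.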

Additional observations from a re-analysis of the deposited data

Results flagged for a closer look

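The effect of OHT differed between lines, by the test of the difference itself, for the following members, given as log2 differences with edgeR's adjusted p. Against HDAC1-WT, the HDAC1-E63R effect was higher for Peg10 by 2.57 (adjusted p = 1.42e-06), Mest by 2.36 (adjusted p = 1.32e-06), Nnat by 2.34 (adjusted p = 5.67e-06), Plagl1 by 2.27 (adjusted p = 2.29e-05), H19 by 2.12 (adjusted p = 1.73e-05), Rian by 1.53 (adjusted p = 0.000918) and Cdkn1c by 1.35 (adjusted p = 0.000387).

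Against HDAC1-WT, the HDAC1-Y48E effect was higher for Peg10 by 3.59 (adjusted p = 7.67e-10), Cdkn1c by 2.89 (adjusted p = 4.71e-09), Nnat by 2.57 (adjusted p = 1.23e-07), Mirg by 2.27 (adjusted p = 0.000145), Mest by 2.03 (adjusted p = 3.81e-07), H19 by 1.91 (adjusted p = 3.25e-06), Plagl1 by 1.80 (adjusted p = 3.64e-05), H13 by 1.54 (adjusted p = 5.15e-06) and Rian by 1.36 (adjusted p = 0.000124). Both sets use the same HDAC1-WT libraries. Between the mutants, Cdkn1c differed by 1.55 (adjusted p = 0.000116), its untreated level being lower in HDAC1-Y48E than in HDAC1-E63R.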

How the results depend on the processing

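Of 71 calls of a member in a comparison, 53 held in every alternative that gave the member an adjusted p. Another 18 were lost in at least 1, and 0 changed direction. Among the 53, Igf2 after OHT with HDAC1-Y48E and Peg13 in untreated HDAC1-E63R minus HDAC1-WT had 10 such alternatives in place of 11. With the adjusted p alone, 17 members passed after OHT with HDAC1-E63R in place of 10, 16 in place of 8 for untreated HDAC1-E63R minus HDAC1-WT, and 2 in place of 1 for the difference in OHT effect between the mutants. With only the libraries compared, these became 5 for OHT with HDAC1-E63R, 4 for untreated HDAC1-E63R minus HDAC1-WT and 4 in place of 8 for untreated HDAC1-Y48E minus HDAC1-E63R. The difference in OHT effect between the mutants gave 3 calls with RLE factors, 2 with no filter, 3 with DESeq2 and 1 to 2 when a library was left out. Leaving out 1 library gave, after OHT, 1 to 1 call in HDAC1-WT, 9 to 12 calls in HDAC1-E63R and 11 to 13 in HDAC1-Y48E. It gave 7 to 8 and 9 to 10 calls for the differences in OHT effect of HDAC1-E63R and HDAC1-Y48E from HDAC1-WT. For the untreated lines it gave 9 to 13, 11 to 14 and 7 to 9, in the order of the report. The cause of these moves was not tested.

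The numbers shared by replicates did not pair the libraries, with correlations of deviations from -0.03 to 0.07. With the replicate block, 1, 9 and 14 members were called after OHT in HDAC1-WT, HDAC1-E63R and HDAC1-Y48E, 7, 9 and 1 for the differences in OHT effect, and 8, 13 and 8 for the untreated lines. Members with few counts, such as Mirg with HDAC1-E63R, Igf2 and Peg13, are limited by depth.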
